A study of Mus musculus with 12 samples.

Results

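The genes of the mTOR complexes and of their closest regulators were followed in inguinal white adipose tissue (iWAT), a subcutaneous fat depot of the mouse that turns on heat production in cold. The rows of the count table whose symbol was Mtor, Rptor, Rictor, Deptor, Mlst8, Akt1s1, Tsc1, Tsc2, Rheb or Rps6kb1 were taken, and all 10 were found among the 23420 genes of the table. The samples were iWAT RNA of male C57BL/6 mice aged 10 weeks, 12 libraries in all. WT and HIF2α AKO mice were each held at TN or in cold, which gave 4 groups of 3 mice. TN mice were kept at thermoneutrality, 30 °C, for 1 week, and cold mice at 4 to 6 °C for 3 days. HIF2α AKO mice carried Adipoq-Cre and HIF2a loxP/loxP alleles, and WT mice carried the same loxP alleles without Cre. Adipoq drives Cre in adipocytes, so the other cells of the depot kept the gene, and the presence of Cre and the loss of HIF2α cannot be told apart.

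mTOR is a protein kinase that joins growth signals to the use of nutrients, and it works in a pair of complexes. In mTORC1 it is bound to Raptor, the product of Rptor, and in mTORC2 to Rictor, while Mlst8 encodes a subunit of both. Deptor encodes an inhibitor of both complexes and Akt1s1 encodes PRAS40, an inhibitor of mTORC1. The tuberous sclerosis proteins TSC1 and TSC2 keep the small GTPase Rheb, which activates mTORC1, in its inactive form, and S6 kinase, the product of Rps6kb1, is a main mTORC1 substrate. In fat tissue mTORC1 is known for its part in lipid synthesis, adipocyte differentiation and the β-adrenergic response, and its activity is set mainly on the protein, which RNA counts do not measure.

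Each library held between 22368316 and 35204631 counts on genes, and the members had between 452 and 6119 counts per library. Adipocyte markers, 7 of 7 genes, were read in every group, with a summed level of at least 10630 CPM (counts scaled to the library size after TMM normalization), and 0 of the 7 were at 0 in a group. Epas1, which encodes HIF2α, was not lower where the label reads HIF2α AKO: its mean was 348 ± 53.8 CPM (SD, n = 3) against 360 ± 76.8 at TN, and 826 ± 138 against 627 ± 101 in cold. The paper reports lower Hif2a (Epas1) mRNA in adipose tissue of its HIF2α AKO mice. The counts here span the whole gene and all cells of the depot, so they cannot show whether adipocytes lost it. Genotypes are therefore given as labelled. A list of 11 skeletal muscle genes summed to 1588 CPM in TN HIF2α AKO replicate 2 and to 1298 CPM in cold HIF2α AKO replicate 1, against 12.0 to 95.1 CPM in the other 10 libraries, and the calls of cold against TN in HIF2α AKO are given with and without these libraries. None of the 11 muscle genes was at 0 in all libraries of a group.

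Per kilobase of annotated exon, the members spanned a wider range of levels in cold HIF2α AKO than in TN WT. In TN WT the highest was Akt1s1, with 13.1 ± 1.98 CPM per kilobase (SD, n = 3), followed by Tsc2 with 11.8 ± 0.81, and the ranges of this pair overlapped. Mtor followed with 8.48 ± 0.34 and Rps6kb1 with 7.56 ± 0.25, and each of these stood apart from its neighbours in the order. Rheb (6.16 ± 0.97) overlapped Rptor (5.21 ± 0.22), and Rptor stood apart from Tsc1 (4.76 ± 0.23). Tsc1, Rictor (4.55 ± 0.34), Deptor (4.27 ± 2.15) and Mlst8 (3.84 ± 0.17) followed, each overlapping the next. In cold HIF2α AKO the order began with Mtor, at 23.2 ± 5.31 CPM per kilobase, and ended with Rictor, at 3.01 ± 0.23. The other members lie, in GENCODE vM21 coordinates of GRCm38, at chr11:119602905-119899576 (Rptor), chr15:6708379-6800401 (Rictor), chr15:55112317-55259271 (Deptor), chr7:44848991-44855421 (Akt1s1) and chr2:28641228-28691167 (Tsc1) on the plus strand. On the minus strand they lie at chr17:24473551-24479078 (Mlst8), chr17:24595816-24632630 (Tsc2), chr5:24802823-24842624 (Rheb) and chr11:86498871-86544805 (Rps6kb1). The annotation behind the counts is not given in the sources used here and may differ. These levels divide by all annotated exon bases of a gene, and the transcripts in use were not measured. The order depends on this length. Per kilobase of the longest transcript, Mtor in TN WT (10.0) lay below Rps6kb1 (11.83), Rheb (11.76) and Rptor (10.65). In cold HIF2α AKO Akt1s1 (28.75) then lay above Mtor (27.38), and Rictor (5.47) was still the lowest.

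**Figure D1:**
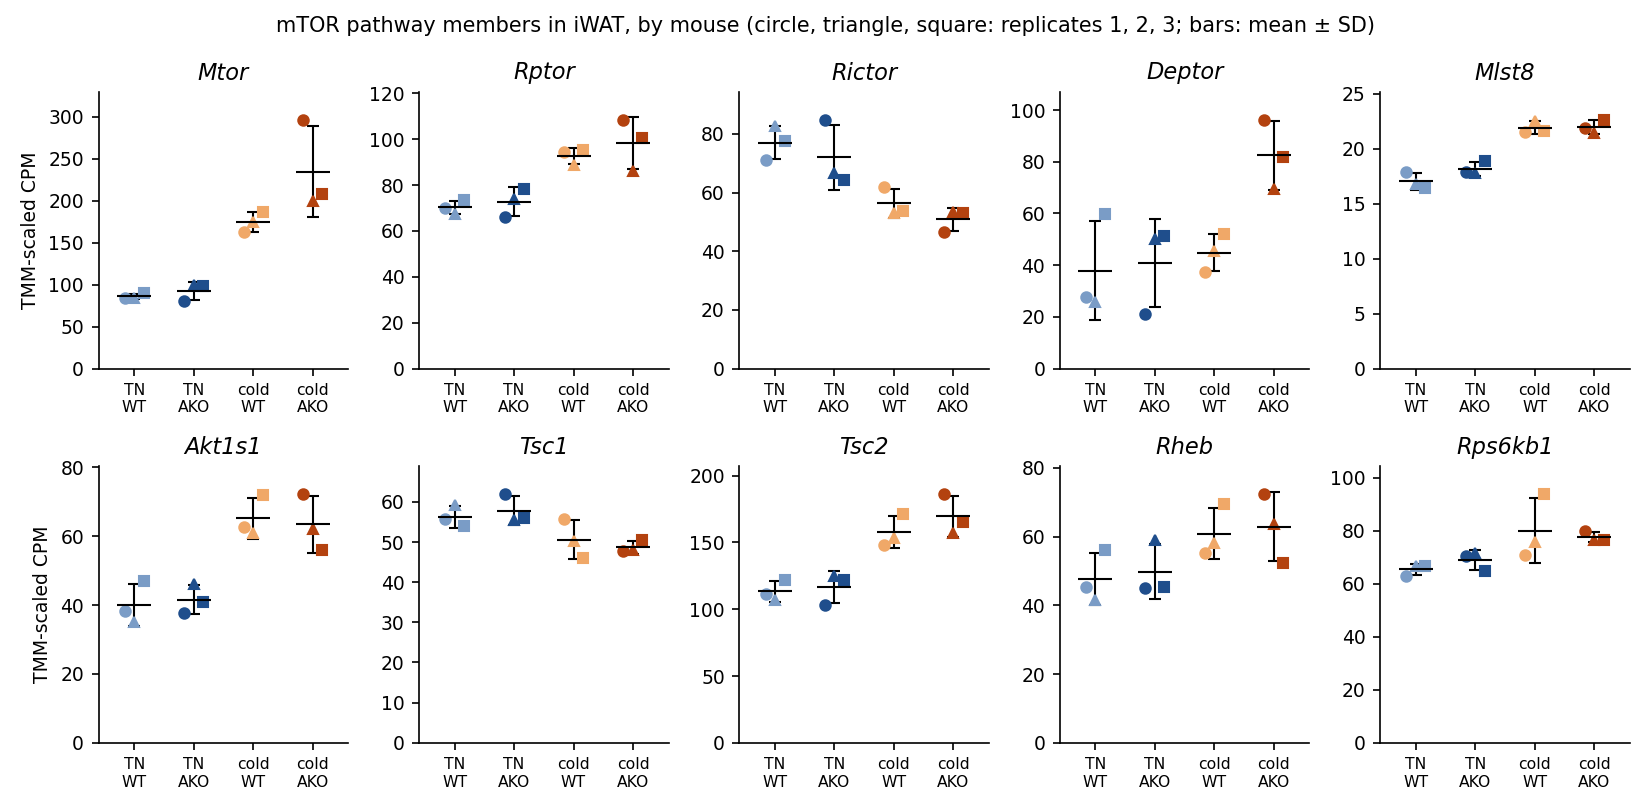
TMM-scaled CPM (y axis) of the 10 members in each library, by group (x axis), with circles, triangles and squares for replicates 1, 2 and 3 and bars for the mean ± SD of 3 mice. Mtor lay between 80.4 and 99.4 CPM in the 6 TN libraries and between 162 and 296 in the 6 cold libraries, Rictor was lower in cold, and Deptor was highest in cold HIF2α AKO.

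Whether cold altered the transcripts of the complexes was asked first within WT. Of the 10 members 6 passed the test, a quasi-likelihood fit by edgeR with p-values adjusted over 15306 genes (Benjamini-Hochberg) and a limit of 0.05, as for all adjusted p-values here. Mtor, Rptor, Mlst8, Akt1s1 and Tsc2 rose and Rictor fell. Over all tested genes 15.6% rose and 5.68% fell in the same comparison. The median log2 fold change was 0.36 over the members and -0.03 over all tested genes. The split of calls depended on scaling: 73.3% of all called genes were higher in cold with TMM and 42.6% with upper quartile scaling, which moved the median of all genes by -0.14. Within HIF2α AKO the same 6 members passed the test in the same directions, where 15.6% of all genes rose and 11.5% fell, and 57.5% of called genes were higher with TMM and 42.4% with upper quartile scaling. Without both libraries with muscle transcripts 8.02% rose and 1.78% fell there, so that 81.8% of 1514 called genes were higher. With all 12 libraries the median log2 fold change in HIF2α AKO was 0.39 over the members and -0.05 over all genes. In bulk tissue a change in the number of cells of a type and a change in RNA per cell cannot be told apart. Beside the members that rose, the summed level of the 7 adipocyte markers went from between 10630 and 20520 CPM in TN WT to between 19030 and 35070 CPM in cold WT, and from between 15120 and 25390 to between 24280 and 28030 CPM in HIF2α AKO. The sums overlapped between TN and cold in both genotypes. Fabp4, Lipe, Plin1 and Pparg lay higher in all cold WT libraries than in all TN WT libraries, while Adipoq, Lep and Cfd overlapped. In HIF2α AKO Fabp4, Lipe and Pparg lay higher in all cold libraries, and Adipoq, Plin1 and Lep overlapped. Cfd lay lower in all cold HIF2α AKO libraries, at 8087 to 8816 CPM against 8872 to 15180 CPM at TN. The part of adipocyte transcripts in the levels of the members was not tested.

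Mtor, the kinase of both complexes, was read at 83.5, 84.2 and 89.7 CPM in TN WT and at 162, 174 and 186 CPM in cold WT. In the libraries labelled HIF2α AKO it was read at 80.4, 99.4 and 98.0 CPM at TN and at 296, 199 and 208 CPM in cold. Every cold library lay above every TN library. Cold raised Mtor 2.03-fold in WT (log2 fold change 1.02, SE 0.15, adjusted p = 0.0016) and 2.53-fold in HIF2α AKO (1.34, SE 0.15, adjusted p = 0.00031). The call held in all 22 alternative fits of either comparison, with log2 fold changes of at least 0.89 in WT and 1.14 in HIF2α AKO. The gene lies at chr4:148448611-148557683 on the plus strand (GRCm38, GENCODE vM21). Angptl7 lies within it on the opposite strand but shares 0 exon bases with it.

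Rptor encodes the subunit that defines mTORC1 and presents its substrates. Its levels were 69.8, 67.5 and 73.3 CPM in TN WT and 94.2, 88.6 and 95.3 CPM in cold WT, and 66.1, 73.9 and 78.3 CPM in TN HIF2α AKO and 109, 86.2 and 101 CPM in cold HIF2α AKO. The groups did not overlap in either genotype, and the rise was smaller than that of Mtor, at 1.32-fold in WT (log2 fold change 0.40, SE 0.10, adjusted p = 0.017) and 1.35-fold in HIF2α AKO (0.44, SE 0.10, adjusted p = 0.011). With upper quartile scaling the value in WT was 0.27 and missed the limit (adjusted p = 0.051). Mlst8 encodes the small subunit that both complexes share. It varied little between mice, with 17.9, 16.8 and 16.4 CPM in TN WT, 21.5, 22.6 and 21.6 CPM in cold WT, 17.8, 17.8 and 18.9 CPM in TN HIF2α AKO and 21.9, 21.4 and 22.6 CPM in cold HIF2α AKO. It rose 1.28-fold in WT (0.36, SE 0.08, adjusted p = 0.0091) and 1.21-fold in HIF2α AKO (0.27, SE 0.08, adjusted p = 0.025), and both calls were lost with upper quartile scaling (adjusted p = 0.057 and 0.10). The exons of Mlst8 share 997 bases with Bricd5, a gene with 0 counts in these libraries.

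Rictor, which defines mTORC2 as Raptor defines mTORC1, was the one member that fell and passed the test in both genotypes. It was read at 71.1, 82.6 and 77.4 CPM in TN WT and at 62.0, 53.1 and 53.7 CPM in cold WT, and at 84.8, 66.7 and 64.4 CPM in TN HIF2α AKO and 46.4, 53.4 and 52.9 CPM in cold HIF2α AKO. The cold groups lay below the TN groups without overlap. The log2 fold change was -0.45 in WT (SE 0.12, adjusted p = 0.023) and -0.50 in HIF2α AKO (SE 0.12, adjusted p = 0.014), which correspond to 0.73 and 0.71 of the TN level. Beside this fall, the summed level of 5 progenitor and fibroblast markers went from between 5278 and 5901 CPM in TN WT to between 2786 and 3693 CPM in cold WT, and from between 4269 and 5854 to between 2653 and 3275 CPM in HIF2α AKO, with 0 of the 5 genes at 0. The collagen genes carried this sum, with Col3a1 between 3017 and 3176 CPM in TN WT and between 1264 and 1896 CPM in cold WT and Col1a1 between 1277 and 1411 CPM and between 502 and 816 CPM. Dcn and Lum overlapped between TN and cold in WT. In HIF2α AKO they lay lower in all cold libraries, as did both collagen genes. Dcn went there from between 857 and 1080 to between 675 and 717 CPM, and Lum from between 111 and 187 to between 71.5 and 103 CPM. Pdgfra, which marks the progenitors, overlapped between TN and cold in both genotypes, at 109 to 152 and 121 to 157 CPM in WT and at 115 to 152 and 114 to 150 CPM in HIF2α AKO. The 6 lymphocyte markers also had lower sums in cold, from between 852 and 1389 to between 434 and 785 CPM in WT and from between 855 and 1427 to between 471 and 737 CPM in HIF2α AKO, with 0 of the 6 at 0. The 5 macrophage markers overlapped in WT and went from between 1995 and 2217 to between 1116 and 1351 CPM in HIF2α AKO, with 0 of the 5 at 0. The part of the transcripts of any of these lists in the level of Rictor was not tested.

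The libraries can also be described by the level of Rptor over that of Rictor, both per kilobase. The log2 ratio was 0.30, 0.04 and 0.25 in TN WT, and -0.03, 0.48 and 0.61 in TN HIF2α AKO. In cold it was 0.93, 1.07 and 1.16 in WT, and 1.55, 1.02 and 1.26 in HIF2α AKO. All 6 cold libraries lay above all 6 TN libraries, with means of 0.20 ± 0.14 (SD, n = 3) in TN WT, 0.35 ± 0.34 in TN HIF2α AKO, 1.05 ± 0.11 in cold WT and 1.28 ± 0.27 in cold HIF2α AKO. The ratio is a description of the levels just given and was not tested.

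**Figure D2:**
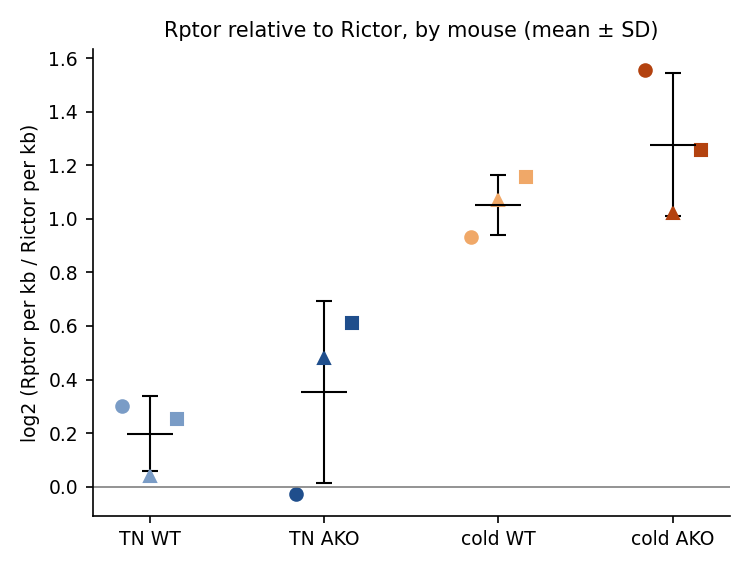
Log2 ratio of Rptor to Rictor, both in CPM per kilobase of exon (y axis), in each library by group (x axis), with circles, triangles and squares for replicates 1, 2 and 3 and bars for the mean ± SD of 3 mice. The cold libraries lay between 0.93 and 1.55 and the TN libraries between -0.03 and 0.61.

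Of the inhibitors of the complexes, Akt1s1 rose in both genotypes and Deptor passed the test in neither. Akt1s1, which encodes PRAS40, was read at 38.3, 35.1 and 46.9 CPM in TN WT and at 62.6, 60.8 and 72.0 CPM in cold WT, and at 37.8, 46.0 and 40.9 CPM in TN HIF2α AKO and 72.3, 62.1 and 56.0 CPM in cold HIF2α AKO. It rose 1.62-fold in WT (log2 fold change 0.70, SE 0.13, adjusted p = 0.0054) and 1.52-fold in HIF2α AKO (0.61, SE 0.13, adjusted p = 0.0090), and this call also held in all 22 alternative fits of either comparison. Its exons share 89 bases with Tbc1d17 on the opposite strand, and the strand setting of the counting is not given in the sources used here. Tbc1d17 had log2 fold changes of -0.27 in WT (adjusted p = 0.073) and -0.31 in HIF2α AKO (adjusted p = 0.039).

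Deptor, the inhibitor of both complexes, varied most between the mice of a group at TN. In TN WT it was read at 27.9, 25.8 and 59.9 CPM, and in TN HIF2α AKO at 21.2, 49.9 and 51.2 CPM, so that each TN group held low and high mice. In cold it was read at 37.3, 45.5 and 51.9 CPM in WT and at 96.3, 69.6 and 81.8 CPM in HIF2α AKO. In WT the groups overlapped and the log2 fold change of 0.25 did not pass the test (SE 0.36, 95% interval -0.55 to 1.04, adjusted p = 0.63). That value rested on single mice, since it was 0.74 (adjusted p = 0.11) without TN WT replicate 3 and 0.02 (adjusted p = 0.98) without TN WT replicate 2. TN WT replicate 3 also held 200 CPM of 6 epithelial markers, against 2.95 to 10.3 CPM in the other 11 libraries, and their part in the level of Deptor was not tested. In HIF2α AKO every cold library lay above every TN library, and the value of 1.02 narrowly missed the limit (SE 0.36, adjusted p = 0.058). It passed there in 5 of 10 alternative settings, DESeq2 and limma voom among them.

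Of the TSC subunits upstream of mTORC1, Tsc2 rose in both genotypes and Tsc1 passed the test in neither. Tsc2, which carries the GTPase-activating domain that acts on Rheb, was read at 112, 107 and 122 CPM in TN WT and 149, 153 and 172 CPM in cold WT, and at 103, 125 and 122 CPM in TN HIF2α AKO and 186, 157 and 165 CPM in cold HIF2α AKO. It rose 1.39-fold in WT (log2 fold change 0.48, SE 0.11, adjusted p = 0.012) and 1.45-fold in HIF2α AKO (0.54, SE 0.11, adjusted p = 0.0057). Its exons share 693 bases with Pkd1 on the opposite strand, and Pkd1 had log2 fold changes of -0.09 and -0.25, neither of which passed the test (adjusted p = 0.46 and 0.064). Tsc1, which stabilizes TSC2, was read at 55.7, 59.3 and 53.9 CPM in TN WT and 55.6, 50.2 and 45.9 CPM in cold WT, and at 62.0, 55.5 and 55.9 CPM in TN HIF2α AKO and 47.6, 47.9 and 50.6 CPM in cold HIF2α AKO. Its log2 fold changes, -0.15 in WT (95% interval -0.34 to 0.04, adjusted p = 0.21) and -0.25 in HIF2α AKO (-0.44 to -0.06, adjusted p = 0.055), did not pass the test. With upper quartile scaling both passed, at -0.29 (adjusted p = 0.047) and -0.34 (adjusted p = 0.025). In HIF2α AKO all cold libraries lay below all TN libraries. There Tsc1 passed in 4 of 10 alternative settings, DESeq2 (adjusted p = 0.037) and limma voom (adjusted p = 0.026) among them. It also passed there in 2 of 12 fits with 1 library left out.

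Rheb and Rps6kb1, the activator and the substrate, did not pass the edgeR test in either genotype. Rheb was read at 45.2, 41.5 and 56.0 CPM in TN WT and 55.2, 58.1 and 69.4 CPM in cold WT, and at 45.1, 59.0 and 45.3 CPM in TN HIF2α AKO and 72.4, 63.7 and 52.4 CPM in cold HIF2α AKO. The groups overlapped in both genotypes, with log2 fold changes of 0.36 in WT (95% interval 0.00 to 0.71, adjusted p = 0.13) and 0.33 in HIF2α AKO (-0.02 to 0.69, adjusted p = 0.14). In HIF2α AKO Rheb passed in 1 of 10 alternative settings, limma voom (0.38, adjusted p = 0.030). Rps6kb1 was read at 62.9, 66.8 and 66.6 CPM in TN WT and 70.7, 75.7 and 93.9 CPM in cold WT, and at 70.5, 71.5 and 64.7 CPM in TN HIF2α AKO and 79.9, 76.6 and 76.6 CPM in cold HIF2α AKO. Its groups did not overlap, yet the log2 fold changes of 0.29 (SE 0.10, adjusted p = 0.062) and 0.17 (SE 0.10, adjusted p = 0.21) missed the limit. In WT it passed with DESeq2 on all libraries (0.29, adjusted p = 0.043), with limma voom (0.24, adjusted p = 0.034) and without cold WT replicate 1 (0.38, adjusted p = 0.034), and without cold WT replicate 3 it was 0.16 (adjusted p = 0.22). In HIF2α AKO it passed with limma voom (0.21, adjusted p = 0.048).

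The number of members called rested on single libraries, and so did the number of all tested genes called. In WT 3 members passed without TN WT replicate 2, and 3 without cold WT replicate 3, since Rptor, Rictor and Tsc2 missed the limit then. Of all genes 1381 and 1469 passed in these fits, against 3259 with all libraries. In HIF2α AKO 3 members passed without TN HIF2α AKO replicate 1. Also 3 passed when cold HIF2α AKO replicate 1, which held muscle transcripts, was left out, since Rptor, Rictor and Mlst8 missed it. In HIF2α AKO 1735 and 1613 of all genes passed in these fits, against 4138 with all libraries. Without both libraries with muscle transcripts Mtor (log2 fold change 1.19), Akt1s1 (0.59) and Tsc2 (0.52) passed in HIF2α AKO, and the values of Rptor (0.37), Rictor (-0.49) and Mlst8 (0.26) kept their signs but missed the limit. That fit called 1514 of all genes in HIF2α AKO.

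**Figure D3:**
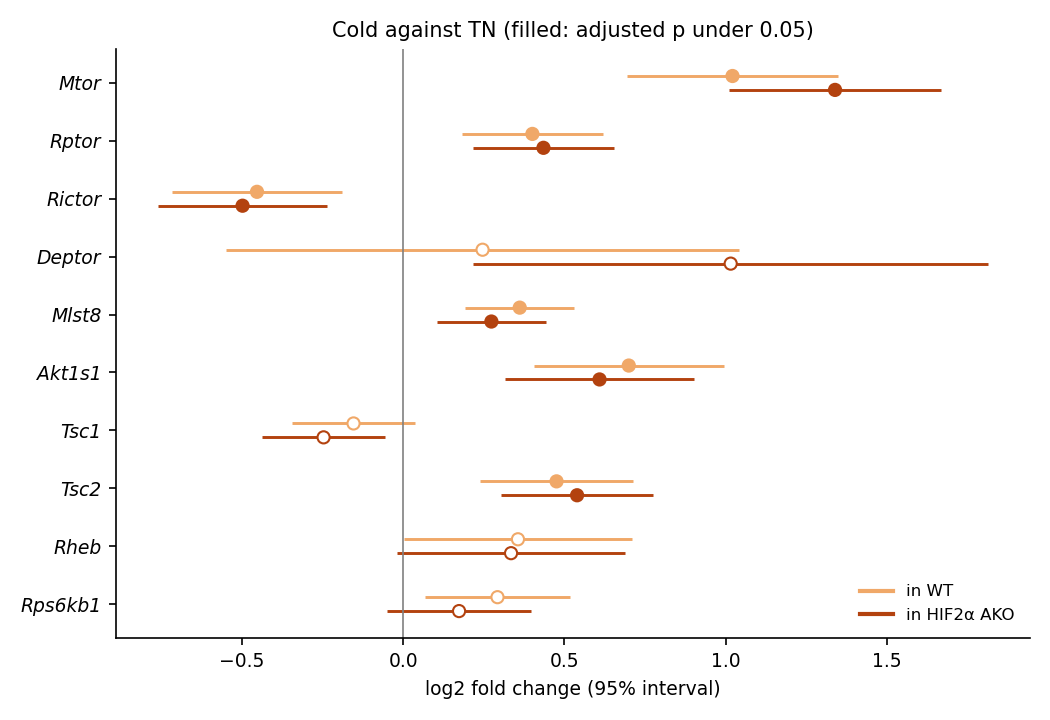
Log2 fold change of cold against TN (x axis) for each member (y axis) in WT and in HIF2α AKO, with 95% intervals and filled points where the adjusted p is under 0.05. In both genotypes the points of Mtor, Rptor, Mlst8, Akt1s1 and Tsc2 are filled to the right of 0 and that of Rictor is filled to the left.

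Libraries labelled HIF2α AKO were then compared with those labelled WT at each temperature. At TN 0 of 10 members passed the test, as did 0.00653% of all tested genes, and 0 of 10 had an unadjusted p under 0.05, against 2.91% of all genes. Log2 fold changes at TN lay between -0.10 for Rictor and 0.11 for Mtor, and the 95% intervals were narrowest for Mlst8 (-0.08 to 0.26) and widest for Deptor (-0.69 to 0.90).

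In cold 0 of 10 members passed the test (0.00653% of all genes did), and 2 members, Mtor and Deptor, had an unadjusted p under 0.05, which 2.95% of all genes had. All 3 cold HIF2α AKO libraries lay above all cold WT libraries for these 2 members, as for 3.8% of all genes. Deptor was 1.84-fold higher (log2 fold change 0.88, SE 0.36, 95% interval 0.08 to 1.68, unadjusted p = 0.034, adjusted p = 1.0 by edgeR). DESeq2 on the 6 cold libraries gave it an adjusted p of 0.0068, and over all alternatives its adjusted p ranged from 0.0068 to 1.0. Mtor was 1.35-fold higher (log2 fold change 0.43, SE 0.15, 95% interval 0.10 to 0.75, unadjusted p = 0.014, adjusted p = 1.0 by edgeR). Without cold HIF2α AKO replicate 1, where Mtor was highest, the value was 0.23 for Mtor and 0.75 for Deptor. That library held 1298 CPM of muscle transcripts. In TN HIF2α AKO Mtor was at 80.4, 99.4 and 98.0 CPM where muscle transcripts summed to 23.3, 1588 and 30.9 CPM, and the part of muscle transcripts in the level of Mtor was not tested.

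In cold, thermogenic adipocyte markers had higher summed levels in each HIF2α AKO library than in each WT library. The summed level of 7 such genes, Ucp1 among them, was 3327, 4834 and 3599 CPM in cold WT and 8544, 5587 and 5847 CPM in cold HIF2α AKO, and between 17.6 and 70.9 CPM at TN. Ucp1 made up most of these sums, at 2171 to 3506 CPM in cold WT and 4046 to 5897 CPM in cold HIF2α AKO. Cidea and Cox7a1 also lay higher in all cold HIF2α AKO libraries, while the other 4 genes, Dio2, Elovl3, Cox8b and Ppargc1a, overlapped between the genotypes. None of the 7 was at 0 in all libraries of a group. Replicate 1 of cold HIF2α AKO was highest in these markers as in Mtor and Deptor, and their part in the level of both genes was not tested. The other 8 members had log2 fold changes between -0.14 for Rictor and 0.10 for Tsc2, and their 95% intervals reached from -0.41 for Rictor to 0.40 for Rheb.

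**Figure D4:**
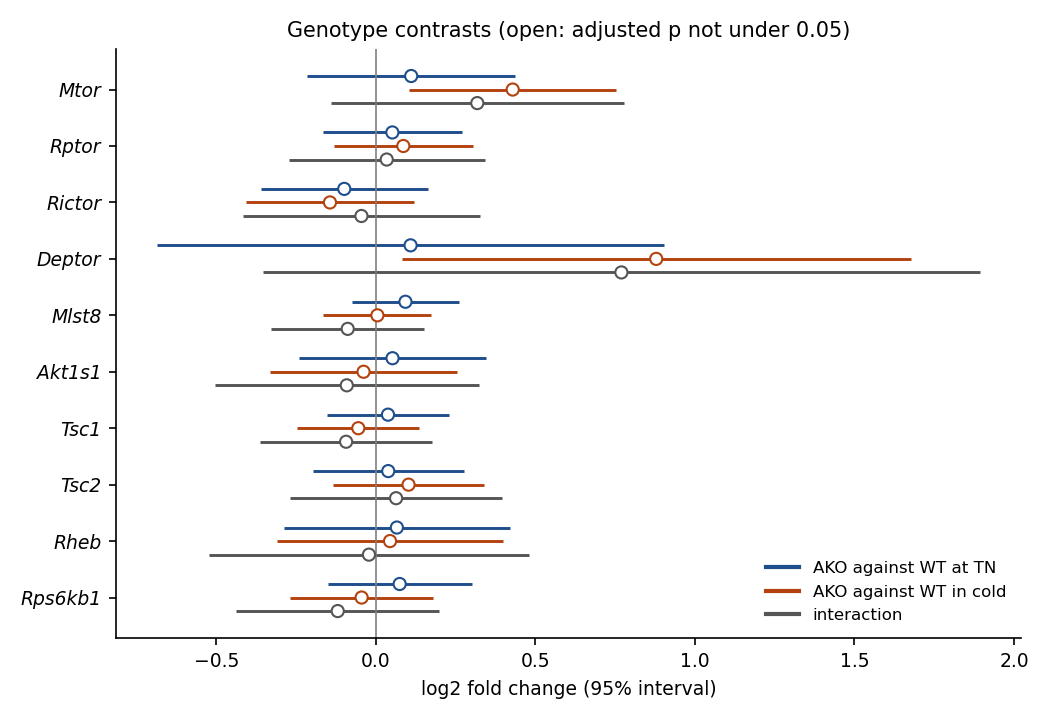
Log2 fold change of HIF2α AKO against WT at TN and in cold, and the interaction of genotype and temperature (x axis), for each member (y axis), with 95% intervals. Open points mark an adjusted p that is not under 0.05, and all points are open; the intervals of Mtor and Deptor in cold lie to the right of 0.

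Whether cold acted on the members differently in the 2 genotypes was tested as the interaction. By edgeR 0 of 10 members and 0.0% of all tested genes passed, 0 members had an unadjusted p under 0.05 (2.14% of all genes had), and DESeq2 and limma voom also called 0 genes. The interaction was largest for Deptor (log2 0.77, SE 0.51, 95% interval -0.35 to 1.89) and Mtor (0.32, SE 0.21, -0.14 to 0.78), and for the other 8 members it lay between -0.12 and 0.06. Without TN WT replicate 3, the one high mouse of its group, the value for Deptor was 0.275, and without TN HIF2α AKO replicate 1, the one low mouse, it was 0.46. Without cold HIF2α AKO replicate 1 the value for Mtor was 0.113. Other libraries left out raised the values: over all such fits Deptor ranged from 0.275 to 0.995 and Mtor from 0.113 to 0.422.

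Around the complexes 77 further genes in 5 lists were measured, all of them tested. In cold against TN 23 rose and 3 fell in WT, and 22 rose and 6 fell in HIF2α AKO, against 15.6% and 5.68%, and 15.6% and 11.5%, of all genes. Without both libraries with muscle transcripts 9 rose and 1 fell in HIF2α AKO, against 8.02% and 1.78% of all genes. Without cold HIF2α AKO replicate 1 alone 10 rose and 2 fell in HIF2α AKO, against 8.39% and 2.03% of all genes. The genes that passed in HIF2α AKO without both libraries, and so with fewer samples, are named per list. In each genotype contrast and in the interaction 0 of the 77 passed the test. At TN, in cold and for the interaction 4, 4 and 3 had an unadjusted p under 0.05, against 2.91%, 2.95% and 2.14% of all genes. The genes named are up to 3 per list with the largest change among those that passed in WT, and those that make up a count of 5 or fewer were named after their values had been seen. The same holds for the other Ragulator, Rag GTPase and sestrin genes that are named.

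The list on amino acid sensing at the lysosome, where Rag GTPases and Ragulator recruit mTORC1, had 27 genes, of which 10 rose and 2 fell in WT and 10 rose and 4 fell in HIF2α AKO. Lamtor1, the Ragulator subunit that anchors the complex in the membrane, went from 84.9 ± 17.6 CPM (SD, n = 3) in TN WT to 175 ± 34.2 CPM in cold WT (log2 fold change 1.04, SE 0.20, adjusted p = 0.0059) and rose by 1.00 in HIF2α AKO. All 5 Ragulator genes, Lamtor1 to Lamtor5, rose in both genotypes, with the smallest values for Lamtor5, at 0.34 and 0.35. Of the Rag GTPases, Rragc went from 95.5 ± 11.5 to 182 ± 20.7 CPM in WT (0.93, SE 0.13, adjusted p = 0.0014) and rose by 0.90 in HIF2α AKO. Rragb, a low transcript, fell from 3.43 ± 0.27 to 1.75 ± 0.33 CPM in WT (log2 fold change -0.97, SE 0.21, adjusted p = 0.0091) and had -0.58 in HIF2α AKO (adjusted p = 0.058). Rraga rose by 0.29 in WT (adjusted p = 0.030) and by 0.32 in HIF2α AKO (adjusted p = 0.017), and Rragd passed in neither. The other gene that fell in WT was Sesn3, which encodes a sestrin, and in HIF2α AKO those that fell were Fnip2, Sesn1, Sesn3 and Slc38a9. Sesn2, another sestrin gene, rose by 0.80 in WT (adjusted p = 0.0029) and had 0.38 in HIF2α AKO (adjusted p = 0.056). When both libraries with muscle transcripts were left out, 4 of the 27 rose in HIF2α AKO, Lamtor1 (1.05, adjusted p = 0.029), Rragc (0.86, adjusted p = 0.011), Lamtor4 (0.72, adjusted p = 0.033) and Lamtor3 (0.41, adjusted p = 0.040), and Sesn3 fell (-0.84, adjusted p = 0.048). Rraga, Lamtor2 and Lamtor5 missed the limit then (adjusted p = 0.052, 0.061 and 0.086).

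Of 8 genes for scaffold and assembly, 1 rose and 1 fell in WT and 2 rose and 1 fell in HIF2α AKO. Tbc1d7, the third subunit of the TSC complex, rose from 8.31 ± 2.22 to 13.8 ± 2.50 CPM in WT (log2 fold change 0.73, SE 0.22, adjusted p = 0.041) and by 0.88 in HIF2α AKO. Prr5l, whose product binds mTORC2, fell from 16.5 ± 0.43 to 11.1 ± 2.61 CPM in WT (-0.58, SE 0.17, adjusted p = 0.032) and by 0.65 on the log2 scale in HIF2α AKO. Mapkap1, which encodes the mTORC2 subunit SIN1, was the other gene that rose in HIF2α AKO, by 0.51. Of these Mapkap1 alone passed there without both libraries with muscle transcripts (0.50, adjusted p = 0.049), while Tbc1d7 (0.88, adjusted p = 0.076) and Prr5l (-0.60, adjusted p = 0.10) did not.

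Of 11 genes of the insulin and PI3K-AKT input, 3 rose and 0 fell in WT. These were Akt1 (log2 fold change 0.46, SE 0.10, adjusted p = 0.0096), Insr, the insulin receptor (0.62, SE 0.18, adjusted p = 0.030), and Pik3r2, a regulatory subunit of PI3K (0.34, SE 0.11, adjusted p = 0.046). In HIF2α AKO Akt1 and Akt2 rose and 0 fell, and Insr (0.49, adjusted p = 0.059) and Pik3r2 (0.15, adjusted p = 0.31) did not pass. Of 9 genes of the AMPK and stress input, 2 rose in WT and 5 in HIF2α AKO, and 0 fell. Prkaa2, a catalytic subunit of AMPK that muscle also expresses, went from 11.3 ± 5.08 to 27.6 ± 8.51 CPM in WT (1.29, SE 0.37, adjusted p = 0.032) and rose by 1.71 in HIF2α AKO. Stk11, which encodes the upstream kinase LKB1, rose by 0.36 in WT (SE 0.07, adjusted p = 0.0082) and 0.41 in HIF2α AKO. The others in HIF2α AKO were the AMPK subunit genes Prkab1, Prkag1 and Prkag2. Without both libraries with muscle transcripts 0 of the 11 genes of the insulin and PI3K-AKT input passed in HIF2α AKO, with Akt1 at 0.45 (adjusted p = 0.066) and Akt2 at 0.74 (adjusted p = 0.076). Of the AMPK and stress input Prkaa2 (1.97, adjusted p = 0.024), Prkag2 (0.84, adjusted p = 0.018), Prkab1 (0.50, adjusted p = 0.032) and Stk11 (0.38, adjusted p = 0.045) passed then and Prkag1 did not (0.42, adjusted p = 0.068).

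Of 22 substrates and outputs, 7 rose and 0 fell in WT, and 3 rose and 1 fell in HIF2α AKO. Lpin1, which encodes a lipid phosphatase that mTORC1 phosphorylates, rose from 173 ± 65.7 to 639 ± 172 CPM in WT (log2 fold change 1.88, SE 0.36, adjusted p = 0.0054) and by 1.43 in HIF2α AKO. Sgk1, an mTORC2 substrate, rose by 0.60 in WT (SE 0.17, adjusted p = 0.030) and had 0.42 in HIF2α AKO (adjusted p = 0.082). Eif4e, the cap-binding protein that the mTORC1 substrates 4E-BP hold back, rose by 0.43 in WT (SE 0.11, adjusted p = 0.018) and 0.45 in HIF2α AKO. In HIF2α AKO the others that passed were Eif4ebp2, which rose, and Foxo3, which fell. In HIF2α AKO 0 of the 22 passed without both libraries with muscle transcripts, with Lpin1 at 1.47 (adjusted p = 0.064), Eif4e at 0.40 (adjusted p = 0.065), Eif4ebp2 at 0.29 (adjusted p = 0.096) and Foxo3 at -0.75 (adjusted p = 0.066).

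**Figure D5:**
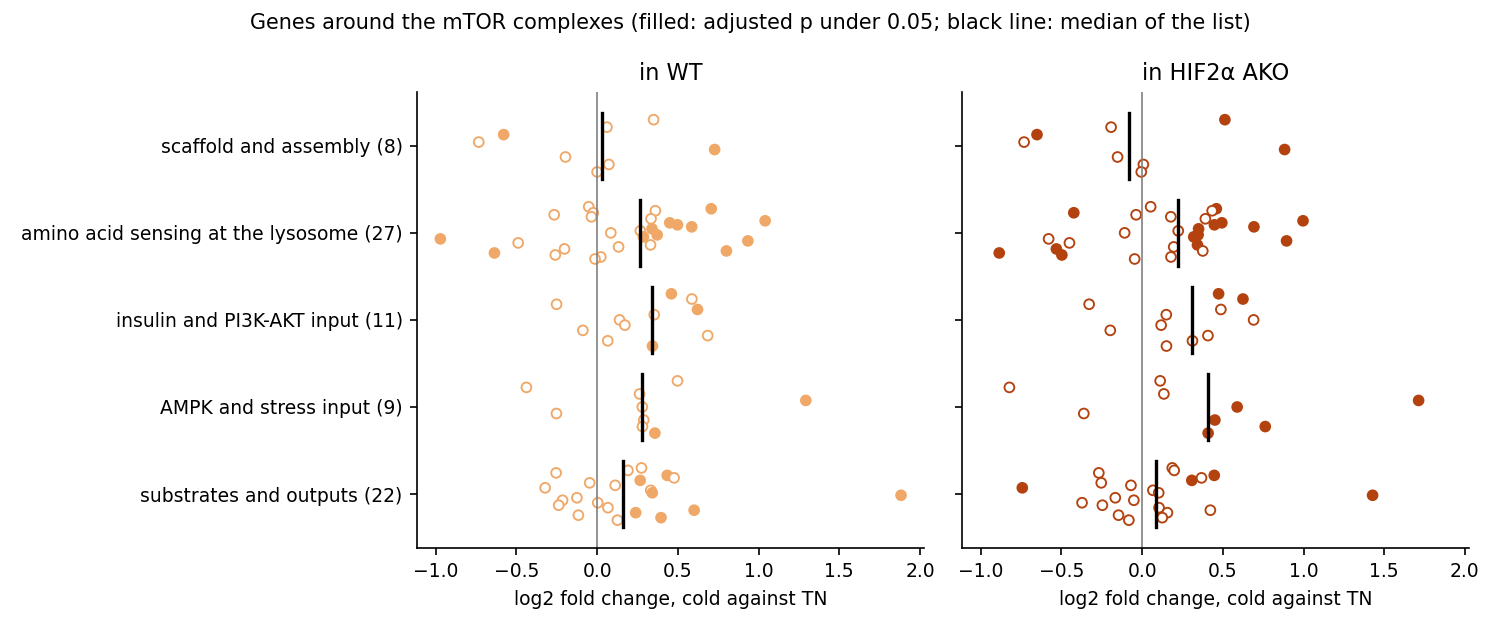
Log2 fold change of cold against TN (x axis) of the 77 genes around the mTOR complexes in 5 lists (y axis, number of genes in brackets), in WT on the left and in HIF2α AKO on the right, with filled points where the adjusted p is under 0.05 and a black line at the median of a list. Most filled points lie to the right of 0, with 23 rising and 3 falling in WT and 22 rising and 6 falling in HIF2α AKO.

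The 5 tested genes whose log2 CPM followed Mtor most closely over the 12 libraries were 9630033F20Rik (Pearson's r = 0.995), Letmd1 (0.994), Gnas, Mrs2 and Hccs (0.993 each). Since the libraries fall into TN and cold clusters, these values describe mainly that step. With each group centred on its own mean, r of the same genes lay between 0.905 and 0.949. Letmd1 went from 54.4 CPM in TN WT to 240 CPM in cold WT, and Gnas, which encodes the stimulatory G protein α subunit, from 830 to 1691 CPM. All points share their libraries and scaling factors, and the values are descriptions.

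The promoters of Mtor and Akt1s1, which rose in all fits, of Rptor and of Rictor, which moved in opposite directions, are shown with the letters of the hypoxia response element core, ACGTG or GCGTG on either strand, in capitals, since HIF2α is a factor that binds this core. Each window runs from 250 bases before to 50 after the start of the gene, on the strand of the gene (RefSeq, GRCm38.p6), and windows matched 9 of the 10 members, all but Deptor. The RefSeq start can differ from the GENCODE start, and the windows of Akt1s1 and Rheb lie within the GENCODE spans given above.
Mtor (chr4:148448332-148448631, plus strand): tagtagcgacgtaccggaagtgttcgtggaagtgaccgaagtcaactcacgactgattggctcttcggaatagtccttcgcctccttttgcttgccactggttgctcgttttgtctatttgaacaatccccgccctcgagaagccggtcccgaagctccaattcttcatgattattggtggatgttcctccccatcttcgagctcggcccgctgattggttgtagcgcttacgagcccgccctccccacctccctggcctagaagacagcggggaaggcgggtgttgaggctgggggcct
Akt1s1 (chr7:44850122-44850421, plus strand): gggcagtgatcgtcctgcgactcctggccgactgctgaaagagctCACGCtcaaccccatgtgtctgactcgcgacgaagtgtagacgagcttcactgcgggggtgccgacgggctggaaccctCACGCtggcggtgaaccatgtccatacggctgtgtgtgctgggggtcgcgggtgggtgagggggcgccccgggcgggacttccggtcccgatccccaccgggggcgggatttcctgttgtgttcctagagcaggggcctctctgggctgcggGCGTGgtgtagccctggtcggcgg
Rptor (chr11:119602655-119602954, plus strand): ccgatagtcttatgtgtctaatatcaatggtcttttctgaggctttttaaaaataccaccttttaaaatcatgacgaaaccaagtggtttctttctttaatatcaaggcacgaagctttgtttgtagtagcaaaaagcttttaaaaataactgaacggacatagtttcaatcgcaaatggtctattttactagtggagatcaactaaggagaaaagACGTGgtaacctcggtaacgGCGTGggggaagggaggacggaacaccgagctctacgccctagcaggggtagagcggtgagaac
Rictor (chr15:6708131-6708430, plus strand): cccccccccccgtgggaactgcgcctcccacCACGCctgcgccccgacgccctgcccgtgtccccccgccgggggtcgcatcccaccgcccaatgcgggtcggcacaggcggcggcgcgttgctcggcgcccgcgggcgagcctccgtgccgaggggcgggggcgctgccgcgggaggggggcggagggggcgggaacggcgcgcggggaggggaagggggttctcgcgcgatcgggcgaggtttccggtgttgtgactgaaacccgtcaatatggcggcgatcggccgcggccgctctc
The letters of the core were in 7 of the 9 windows, and in 43.8% of all 32851 promoter windows of the same length. The window of Mtor held 0, that of Rptor 2, that of Rictor 1 and that of Akt1s1 3. Of the others, the windows of Tsc1, Tsc2 and Rps6kb1 held 1 each, that of Mlst8 held 0, and that of Rheb held 2, which are both strands of an E-box, CACGTG. That E-box was in 1 of the 9 windows and in 7.15% of all windows, and TGACG, the core of the cAMP response element, was in 4 of the 9, those of Rptor, Rictor, Tsc1 and Rheb, and in 20.8% of all windows. A match describes the letters of the window and not a bound site, and binding was not measured here.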

How the data were processed

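RNA-seq of iWAT was analysed from whole read counts that the authors deposited, 1 value per gene and library, for 12 libraries, 3 mice per group. Per the paper's methods and the submitters' processing notes, reads were trimmed with Trim Galore 0.4.4, aligned with STAR 2.6.1d to GRCm38 (mm10), counted with HTSeq 0.13.5 and compared with DESeq2 1.30.0, and neither the gene annotation nor the strand setting or read length is given in the sources used here. The deposited counts are whole and not normalized, and per-sample and series tables held equal counts for all 12 libraries. The 5 tallies outside genes, between 21.9 and 27.0% of the reads listed, were left out. Libraries were assigned to groups by their labels.

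The tools were edgeR 4.0.16, DESeq2 1.42.0 and limma 3.58.1 in R 4.3.3. Genes passed filterByExpr (minimum count 10, minimum total 15), which left 15306 of 23420. A quasi-likelihood model of 4 groups was fitted after TMM scaling, and cold against TN within each genotype, HIF2α AKO against WT at each temperature and their interaction were tested, two-sided, with Benjamini-Hochberg adjustment over all tested genes. Standard errors are the log2 fold change over the root of F, and 95% intervals use the moderated degrees of freedom. P-values set a difference against the spread between mice within groups, with 3 mice per group. That spread was estimated over all 4 groups together and moderated across genes. Levels are TMM-scaled CPM, and log2 CPM used a prior count of 2. Named genes were all 10 members, per pathway list up to 3 genes with the largest absolute change among those that passed in cold against TN in WT together with any that passed a genotype contrast, and the 5 genes most correlated with Mtor. The members and lists were chosen with earlier results of these data known, and 2 genes of the lists are not reported here. Positions come from GENCODE vM21. The fits were tested on simulated data. Alternatives were other scalings and filters, DESeq2, limma voom, the 6 libraries compared alone, a replicate block, each library left out and, chosen after seeing the data, both libraries with muscle transcripts left out.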

Additional observations from a re-analysis of the deposited data

How the results depend on the processing

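The signs of all 10 members in both comparisons of cold with TN were the same in every alternative, and Mtor and Akt1s1 passed the test in all of them. With 1 library left out, between 3 and 7 members passed in WT, as in HIF2α AKO. Between 1381 and 3722 of all genes passed in WT, against 3259, and between 1613 and 4853 in HIF2α AKO, against 4138. In WT 1381 passed without TN WT replicate 2, 1810 without TN WT replicate 1 and 1469 without cold WT replicate 3. In HIF2α AKO 1613 passed when replicate 1 of cold HIF2α AKO was left out, 1735 without TN HIF2α AKO replicate 1 and 2450 without TN HIF2α AKO replicate 3. Limma voom called 10 members in HIF2α AKO, and 6140 of the 15306 tested genes. Without both libraries with muscle transcripts 3 members and 1514 genes passed there, with fewer samples. EdgeR on the 6 libraries compared called 1752 genes in WT. In the genotype contrasts 1 gene passed at each temperature. DESeq2 called 8 at TN and 7 in cold, DESeq2 on the 6 libraries compared 11 and 13, the latter with 1 member, Deptor, limma voom 2 and 2, and edgeR on 6 libraries 0 and 0. The causes were not tested.

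Small genotype effects that missed the limit changed sign. At TN Tsc1 and Tsc2 were at -0.006 each with upper quartile scaling, and without both libraries with muscle transcripts Akt1s1 was at -0.026, Deptor at -0.061, Rheb at -0.073 and Tsc2 at -0.012. In cold limma voom gave Mlst8 -0.01 and Rps6kb1 0.043, and without both libraries Rheb was at -0.07. For the interaction Rheb was at 0.005 with relative log expression size factors, 0.023 with upper quartile scaling, 0.035 without a filter, 0.003 with DESeq2, 0.043 with limma voom and 0.004 without both libraries, Rptor was at -0.075 with limma voom and -0.031 without both libraries, and Rictor at 0.01 without a filter. With 1 library left out, effects at TN ranged from -0.003 to 0.117 for Rptor, -0.101 to 0.604 for Deptor, -0.034 to 0.18 for Akt1s1, -0.014 to 0.077 for Tsc1, -0.012 to 0.121 for Tsc2 and -0.073 to 0.2 for Rheb. In cold they ranged from -0.017 to 0.059 for Mlst8, -0.142 to 0.044 for Akt1s1, -0.12 to 0.019 for Tsc1, -0.07 to 0.16 for Rheb and -0.127 to 0.086 for Rps6kb1. Interactions ranged from -0.043 to 0.12 for Rptor, -0.12 to 0.089 for Rictor, -0.218 to 0.011 for Akt1s1, -0.019 to 0.126 for Tsc2, -0.155 to 0.118 for Rheb and -0.202 to 0.01 for Rps6kb1.

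The labels do not say whether replicate numbers pair the mice. Deviations of libraries with the same number correlated between -0.43 and 0.39, and 5 of 18 pairs lay above 0.1. With 3 libraries per group these values cannot decide whether the mice were paired. With the replicate block 2561 genes passed in WT and 3313 in HIF2α AKO, where Deptor passed (log2 fold change 1.10, adjusted p = 0.042) and Mlst8 did not (0.27, adjusted p = 0.052). With 3 mice per group, the 95% intervals of the genotype effects bound what these libraries can resolve.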

Other observations

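Other cell types were followed by their marker lists, each with all of its genes in the table. The summed level of 5 macrophage genes lay between 1245 and 2300 CPM in the TN groups and between 982 and 1976 CPM in the cold groups, and that of 6 lymphocyte genes between 852 and 1427 CPM and between 434 and 785 CPM. The 5 endothelial genes summed to between 788 and 954 CPM at TN and to between 957 and 1052 CPM in cold. The 6 epithelial genes summed to 200 CPM in TN WT replicate 3, the mouse with the highest Deptor of its group, and to between 2.95 and 10.3 CPM in the other 11 libraries.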
